A study of Homo sapiens with 12 samples.

Results

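The genes described here are 43 genes that carry a cell through G2 and mitosis: cyclins with CDK1 and its regulators, mitotic kinases, the spindle checkpoint, kinetochore proteins, spindle motors, and the cytokinesis and anaphase machinery. They are a list of gene names, drawn up with earlier results of these data known, out of the 57865 genes over which transcript counts were summed, and all 43 were among the 15424 genes with enough counts to test. They were read in 12 RNA-seq libraries from 4 human acute myeloid leukaemia (AML) cell lines, with 1 library for each line and treatment. Each line received darglitazone at 10 µM, pioglitazone at 10 µM or the solvent DMSO as control for 12 h, and nothing else sets the treatments apart in the labels. Both drugs are thiazolidinediones, ligands of the nuclear receptor PPARγ. MOLM-14 and MV4-11 are lines known to carry a KMT2A fusion and an internal tandem duplication of FLT3, OCI-AML3 is known for its mutant NPM1, and KG-1a is an immature line marked by CD34. Each line is a single cultured line without repeat cultures, so the 4 lines are the replicates of a treatment, and the 3 libraries of a line are its only replicates.

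Transcripts of G2 and mitosis genes build up as cells leave S phase and are cleared or silenced after division, which makes their summed level a widely used readout of how many cells in a culture are cycling. Cyclin B with CDK1 starts mitosis, the checkpoint holds anaphase until every kinetochore is attached, and the anaphase-promoting complex with CDC20 then releases the sister chromatids. Most of these genes are held silent in resting cells by the DREAM complex and switched on by the MYBL2-MuvB complex with FOXM1, both acting through a promoter element called the cell cycle genes homology region (CHR), often next to CCAAT boxes bound by NF-Y. In RNA from a whole culture, fewer cells in G2 or mitosis and less of these RNAs per such cell cannot be told apart.

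Total estimated counts ran from 1.10 M (M, 1000000 counts) in the OCI-AML3 pioglitazone library to 64.24 M in the OCI-AML3 DMSO library. A ribosomal RNA entry took 23.5% of the counts of the KG-1a pioglitazone library and 6.17% of those of the OCI-AML3 pioglitazone library, and at most 0.542% elsewhere. In the OCI-AML3 pioglitazone library, 62 genes specific to KG-1a reached a median of 2.03% of their own level in KG-1a, and in the KG-1a darglitazone library 6 genes specific to MV4-11 reached a median of 3.94% of theirs in MV4-11. In the MV4-11 DMSO library, 4 genes specific to MOLM-14 reached 2.19% and 11 specific to OCI-AML3 reached 1.55%. The MOLM-14 genes reached 1.29% in the MV4-11 darglitazone library, and all other medians were 0.794% or less. Both MV4-11 drug ratios use that DMSO library, and the part of such RNA in them was not tested. The summed level of 11 haematopoietic and myeloid markers lay between 824 and 1820 counts per 1000000 (CPM) in every library, whereas 6 T and B lymphocyte markers summed to at most 47.9 CPM and 8 stromal and epithelial markers to at most 57.4 CPM. Of the 6 erythroid and megakaryocytic markers, HBB, HBA1, ALAS2 and PF4 were at 0 in every library, and ITGA2B reached 177 to 308 CPM in KG-1a.

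RefSeq (GRCh38.p14) promoter entries, 250 bases before to 50 after a start, were matched for 36 of the 43 genes. Where a gene lists more than 1 start, only the first was searched. FOXM1, AURKA, BIRC5, BUB3, TTK, TPX2 and UBE2C had no entry. The promoters were searched on both strands for the CHR, spelled TTTGAA in its main form or else TTTAAA, and for the NF-Y box, spelled CCAAT, with matches counted whether or not they overlapped. TTTGAA was found in 25 of the 36 (69.4%), against 10.0% of the 10959 promoters of tested genes and 15.4% of all 27305 promoters. TTTAAA was found in 11 of the 36 (30.6%), against 7.71% and 12.3%, and CCAAT in 28 (77.8%), against 36.7% and 35.7%. A CHR form together with CCAAT occurred in 24 of the 36 (66.7%), against 6.69% of the promoters of tested genes and 9.49% of all promoters. In 21 promoters a CHR form began within the 65 bases before the start, a count that was not made over all promoters. The 150 bases before the start are shown for genes on which the results below turn: CDC20, CCNB1 and KIF20A, which had some of the lowest fitted values with either drug, the kinases CDK1 and PLK1, CENPF, which was low in KG-1a, and CDC25B as 1 of 2 genes, with CDC25C, in whose whole window no motif was found. CDC25B and CDC25C each list 4 starts, so a motif at a start that was not searched would be missed. The printed bases are written 5′ to 3′ along the gene, and capitals mark a CHR form or a CCAAT box on either strand.
CDC20 (chr1:43358831-43358980, plus strand): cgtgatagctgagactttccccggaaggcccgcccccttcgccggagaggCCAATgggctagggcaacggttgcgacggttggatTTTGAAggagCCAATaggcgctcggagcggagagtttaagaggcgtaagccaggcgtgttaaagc
CCNB1 (chr5:69167000-69167149, plus strand): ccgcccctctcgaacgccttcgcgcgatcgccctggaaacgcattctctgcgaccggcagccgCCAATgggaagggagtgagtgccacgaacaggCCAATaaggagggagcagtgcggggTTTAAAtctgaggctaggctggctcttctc
CDK1 (chr10:60778181-60778330, plus strand): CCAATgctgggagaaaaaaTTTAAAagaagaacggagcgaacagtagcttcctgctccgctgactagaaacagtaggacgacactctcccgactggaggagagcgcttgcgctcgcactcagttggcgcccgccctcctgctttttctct
PLK1 (chr16:23678739-23678888, plus strand): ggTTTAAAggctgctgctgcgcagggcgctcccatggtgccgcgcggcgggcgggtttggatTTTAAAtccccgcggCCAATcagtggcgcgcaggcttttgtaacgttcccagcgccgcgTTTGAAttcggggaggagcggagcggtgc
KIF20A (chr5:138178962-138179111, plus strand): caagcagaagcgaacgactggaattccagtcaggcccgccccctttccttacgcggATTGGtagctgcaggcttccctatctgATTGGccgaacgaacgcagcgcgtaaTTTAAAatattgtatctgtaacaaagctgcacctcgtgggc
CENPF (chr1:214603045-214603194, plus strand): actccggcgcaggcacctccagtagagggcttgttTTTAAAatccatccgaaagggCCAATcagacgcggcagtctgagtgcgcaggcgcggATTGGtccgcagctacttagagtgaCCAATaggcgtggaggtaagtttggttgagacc
CDC25B (chr20:3786801-3786950, plus strand): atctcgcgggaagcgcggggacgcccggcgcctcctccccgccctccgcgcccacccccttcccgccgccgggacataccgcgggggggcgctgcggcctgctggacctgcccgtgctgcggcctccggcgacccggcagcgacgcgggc
These matches are a description of the letters, and binding was not measured.

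Compared per length of transcript, in transcripts per 1000000 (TPM), BUB3 was the most abundant of the 43 genes at 228 ± 102 TPM over the 12 libraries (SD), ahead of CDC20 at 91.9 ± 37.9 TPM and PRC1 at 84.1 ± 37.7 TPM. CENPE was the least abundant at 4.67 ± 3.09 TPM, next to CDC25C at 7.70 ± 3.72 TPM and KIF4A at 10.3 ± 2.97 TPM. This order was not that of every library: UBE2C was below CENPE in KG-1a with pioglitazone and DMSO (0.338 and 0.555 TPM, against 1.43 and 1.24 TPM for CENPE), and CDC25C was below it in OCI-AML3 with pioglitazone (1.97 against 7.79 TPM). Neighbours in this order mostly differed by less than their spread between libraries. For 35 of the 43 genes the OCI-AML3 DMSO library held the highest TPM, a count that was not made over all tested genes. KIF4A and PTTG1 have near-identical copies in the genome (KIF4B and PTTG2), so that the division of their reads is uncertain.

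The cell lines were compared first, since they set the level from which each drug started. KG-1a held less RNA of these genes than the other lines. The 43 genes together took 0.280%, 0.282% and 0.283% of the protein-coding counts in KG-1a with darglitazone, pioglitazone and DMSO, against 0.347% to 0.670% in the other 9 libraries. In the additive fit over all 12 libraries (edgeR's quasi-likelihood test, Benjamini-Hochberg adjustment over 15424 genes), 29 of the 43 genes were lower in KG-1a than in the mean of the other 3 lines at an adjusted p under 0.05 and 0 were higher. Of all tested genes, 27.2% were called lower in that comparison and 26.9% higher. The median log2 fold change was -0.68 over the 43 genes, against -0.03 over all tested genes. The count of 29 was 19 without the KG-1a DMSO library, all 19 of them among the 29. A test of any difference between lines called 32 of the 43 genes (74.4%), a share close to the 72.6% of all tested genes, and without the 3 KG-1a libraries it called 14. Calls among all tested genes moved too when 1 library or line was left out. They ran from 6694 to 8864 genes for KG-1a, in both directions, and from 8223 to 11647 for any line. These ranges are not matched to the omissions above.

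In 14 of the 43 genes (32.6%, against 13.2% of all tested genes) the 3 KG-1a libraries all lay below the 9 others. CENPF, a large kinetochore protein, had 77.5, 101 and 90.4 CPM in KG-1a with darglitazone, pioglitazone and DMSO, against 205 to 489 CPM in the other 9 libraries. Its log2 fold change between KG-1a and the mean of the other lines was -1.69 (SE 0.14, adjusted p = 1.54e-07). ANLN, which anchors the contractile ring, had 22.2, 30.3 and 24.2 CPM in KG-1a, against 67.1 to 123 CPM elsewhere (-1.72, SE 0.14, adjusted p = 1.02e-07). HMMR, a protein of the spindle poles, had 9.63, 11.2 and 10.4 CPM in KG-1a, against 20 to 52.2 CPM elsewhere (-1.85, SE 0.22, adjusted p = 4.74e-06). The KG-1a libraries lay clear of the others for all 3 genes. Cyclin A2, CCNA2, which drives S phase and entry into mitosis, had 24.1, 37.1 and 28.5 CPM in KG-1a, against 55.7 to 169 CPM elsewhere (-1.54, SE 0.22, adjusted p = 7.79e-05), again without overlap.

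By role, all 5 spindle checkpoint genes and all 5 anaphase and chromosome separation genes were called lower in KG-1a, as were 4 of 5 cytokinesis genes, 4 of 7 spindle motor and assembly genes, 3 of 5 kinetochore genes, 2 of 3 entry kinases, 2 of 4 chromosomal passenger genes and 4 of 9 cyclin and CDK1 genes. Levels of FOXM1, the transcription factor of this program, were 73.1, 66.7 and 82.7 CPM in KG-1a, within the 51.1 to 89.1 CPM of the other lines (log2 fold change 0.11, SE 0.10, adjusted p = 0.418). NDC80 (0.05, SE 0.23), ECT2 (0.02, SE 0.24), CDC25B (0.01, SE 0.17) and CCNB2 (-0.12, SE 0.18) also had fitted differences near 0, all with adjusted p of 0.621 or more. Whether the differences among the role groups exceed chance was not tested.

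UBE2C, the ubiquitin-conjugating enzyme that feeds the anaphase-promoting complex, stood apart and was singled out after its values were seen. It lies on chromosome 20 (GRCh38, 45812576 to 45816957, plus strand). KG-1a gave 19, 2 and 4 counts of UBE2C with darglitazone, pioglitazone and DMSO, or 3.98, 0.201 and 0.453 CPM, with exact Poisson intervals (95%, counting error only) of 2.40 to 6.21, 0.0244 to 0.728 and 0.123 to 1.16 CPM. The other 9 libraries had 43 to 99.3 CPM. The mean in KG-1a was 2.24% of that in the other lines, whereas HMMR, next in this order, stood at 27.7%. In the fit UBE2C was lower in KG-1a by a log2 fold change of -5.91 (SE 0.64, adjusted p = 0.000108), a size that rests on very few counts. Of the level in MV4-11, 76.2 CPM, the 3.94% found for MV4-11-specific genes in the KG-1a darglitazone library would be 3.0 CPM, beside the 3.98 CPM measured there, and the part of such RNA in that value was not tested. The neighbouring genes DNTTIP1, with 16.1, 17.9 and 21.7 CPM, and ACOT8, with 14.9, 16.1 and 15.3 CPM in KG-1a with darglitazone, pioglitazone and DMSO, were expressed. SNX21, which starts 17 kb downstream and overlaps ACOT8 on the opposite strand, had 0.209, 0.101 and 0.00 CPM in KG-1a, against 1.20 to 4.39 CPM elsewhere. PLTP had 0.209, 0.00 and 0.00 CPM in KG-1a, against 0.855 to 24.7 CPM elsewhere, and NEURL2 had 0.209, 0.101 and 0.339 CPM, against 0.428 to 2.63 CPM. WFDC3 was at 0 in KG-1a and at 0.207 CPM or less elsewhere. Between SNX21 and PLTP, however, ZSWIM3 had 10.1, 8.26 and 14.1 CPM in KG-1a, against 1.75 to 11.6 CPM elsewhere. ZSWIM1 had 28.9, 23.3 and 34.4 CPM, against 12.3 to 28.3 CPM, and CTSA 108, 84.3 and 101 CPM, against 54.4 to 129 CPM. Low and expressed genes thus lay interspersed near UBE2C in KG-1a, the low ones at very few counts there.

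**Figure D1:**
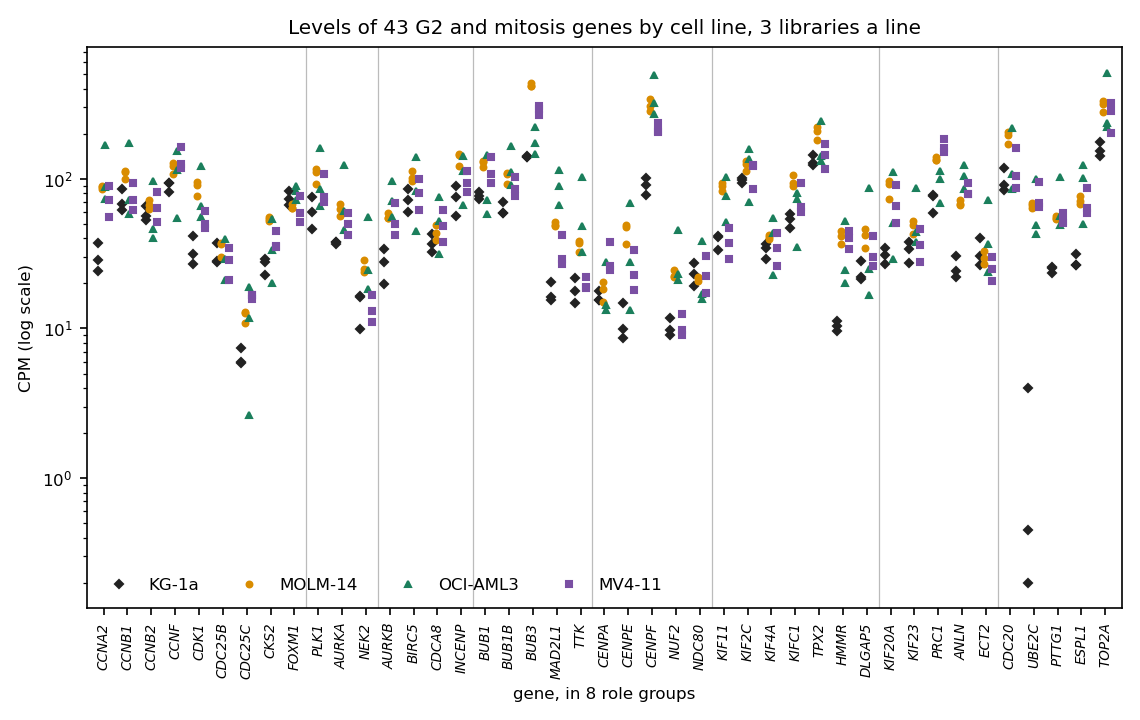
Level of each of the 43 genes in CPM on a log axis, grouped by role, with 1 point for each of the 3 libraries of a line. Levels compare lines within a gene and not genes with each other, since CPM is not scaled by length. UBE2C in KG-1a (0.201 to 3.98 CPM) lies far below its other 9 libraries, and CENPF, ANLN and HMMR also show KG-1a clear of the other lines.

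The other lines had smaller departures. MOLM-14 was higher than the mean of the other 3 lines in 18 of the 43 genes and lower in 0, against 23.5% and 17.7% of all tested genes, and 1 gene, BUB3, had all 3 MOLM-14 libraries above the other 9, as did 9.62% of all tested genes. BUB3, which loads checkpoint proteins onto kinetochores, had 417, 437 and 419 CPM in MOLM-14, against 140 to 304 CPM elsewhere (1.14, SE 0.10, adjusted p = 6.69e-07). OCI-AML3 was higher in 18 genes and lower in 1, BUB3 (-0.52, SE 0.11, adjusted p = 0.00184), against 23.0% and 19.4% of all tested genes. MAD2L1, the checkpoint protein that seizes CDC20, had 66.5, 89.5 and 114 CPM in OCI-AML3, against 15.5 to 51.1 CPM elsewhere (1.54, SE 0.13, adjusted p = 4.51e-07). It was the 1 gene with all 3 OCI-AML3 libraries above the other 9, as were 7.95% of all tested genes. MV4-11 was higher in 7 genes and lower in 5, against 23.3% and 17.5%. PRC1, which bundles the microtubules of the central spindle, had 161, 150 and 185 CPM in MV4-11, against 58.6 to 139 CPM elsewhere (0.76, SE 0.12, adjusted p = 0.000151), and was the 1 gene whose MV4-11 libraries all lay above the others, as did 9.27% of all tested genes. In its protein-coding transcripts alone the lines overlapped, with 115 CPM in MV4-11 with pioglitazone and 116 CPM in MOLM-14 with DMSO. These counts moved with single libraries: the MOLM-14 calls were 6 without its pioglitazone library and 29 without the OCI-AML3 DMSO library, the OCI-AML3 calls were 11 without the OCI-AML3 DMSO library, and the MV4-11 calls, 12 in both directions, were 7 without its pioglitazone or its DMSO library. Without all KG-1a libraries the MOLM-14 calls were 7 and the OCI-AML3 calls 10, and without all OCI-AML3 libraries the MOLM-14 calls were 32. Calls among all tested genes moved as well when 1 library or line was left out. They ran from 4404 to 8112 genes for MOLM-14, 5113 to 6358 for OCI-AML3 and 4566 to 7212 for MV4-11, not matched to single omissions here.

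The drug comparisons asked whether either thiazolidinedione altered these genes in AML cells. With darglitazone, all 43 genes had a fitted log2 fold change below 0 against DMSO, as did 49.0% of all tested genes. Their median was -0.36, against 0.01 over all tested genes, and values ran from -0.71 for DLGAP5 to -0.12 for KIF2C. With pioglitazone all 43 were also below 0, against 53.5% of all tested genes, with a median of -0.39 against -0.02, and values ran from -0.71 for KIF20A to -0.07 for ANLN. No gene passed an adjusted p of 0.05 in either comparison by edgeR's quasi-likelihood test, so none of the 43 was called changed by a drug. Both comparisons use the same 4 DMSO libraries, so they are not independent.

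Below the threshold, an unadjusted p under 0.05 with a lower level was found for 15 of the 43 genes with darglitazone, against 1.65% of all tested genes, and for 21 with pioglitazone, against 3.87%. Of all tested genes, 525 had an unadjusted p under 0.05 in either direction with darglitazone and 919 with pioglitazone. The smallest adjusted p of the 43 genes was 1.0 with darglitazone and 0.542 with pioglitazone. In 23 genes with darglitazone the level was below DMSO in all 4 lines, against 7.03% of all tested genes, and in 16 with pioglitazone, against 10.5%. In 0 of the 43 genes did the 4 libraries of a drug all lie below the 4 DMSO libraries, against 0.253% of all tested genes with darglitazone and 0.285% with pioglitazone. DESeq2 called 6 genes with darglitazone and 56 with pioglitazone, the pioglitazone set including CDC20 (-0.65, adjusted p = 0.0192) and BIRC5 (-0.68, adjusted p = 0.0204), while limma-voom called 0 in both. Without OCI-AML3 the medians of the 43 genes were -0.19 with darglitazone and -0.18 with pioglitazone, and without the OCI-AML3 DMSO library alone they were -0.16 and -0.24.

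**Figure D2:**
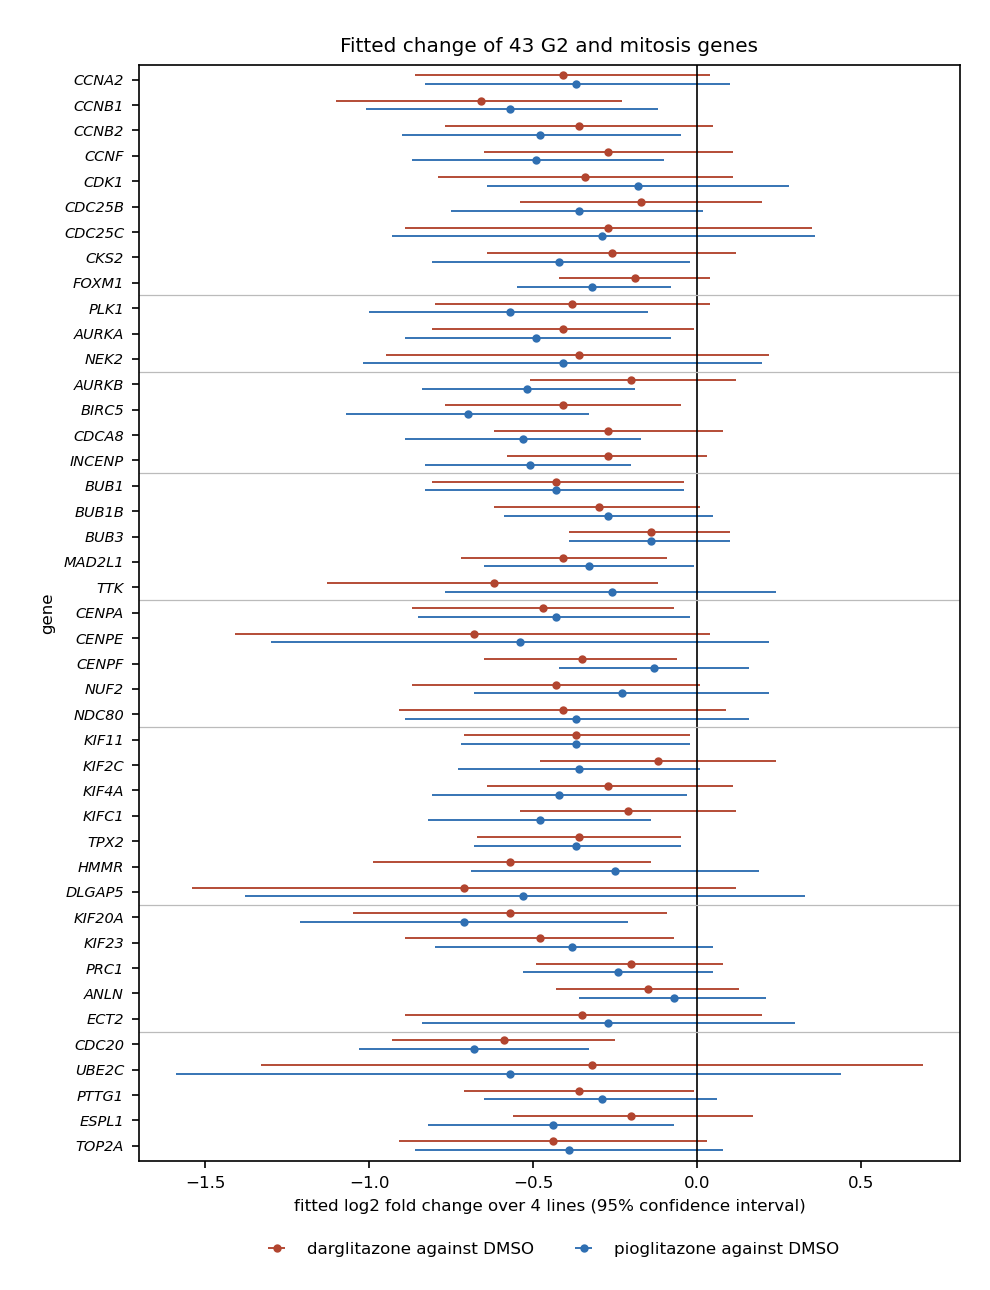
Fitted log2 fold change over the 4 lines for each of the 43 genes, with darglitazone and pioglitazone each against DMSO; points are the estimates of the additive edgeR fit and bars their 95% confidence intervals. Every point lies below 0, from -0.71 to -0.07, many intervals reach above 0, and none of the genes passed the adjusted threshold.

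Among cyclins, CDK1 and their regulators, 1 of 9 genes had an unadjusted p under 0.05 with darglitazone and 5 of 9 with pioglitazone. The lists of 4 values that follow keep the order MOLM-14, OCI-AML3, MV4-11, then KG-1a. Cyclin B1 (CCNB1), the activator of CDK1 at mitotic entry, had 99.5, 58.4, 72.6 and 62.2 CPM with darglitazone, 111, 71.9, 62.0 and 67.8 CPM with pioglitazone and 113, 174, 93.6 and 85.9 CPM with DMSO. Each drug library was below the DMSO library of its own line, least in MOLM-14, while the treatment groups overlapped. The fitted log2 fold change of CCNB1 was -0.66 (SE 0.20, adjusted p = 1.0) with darglitazone and -0.57 (SE 0.20, adjusted p = 0.779) with pioglitazone. CDK1, the mitotic kinase itself, had 76.2, 65.9, 50 and 31.6 CPM with darglitazone, 95.2, 55.3, 47.0 and 41.7 CPM with pioglitazone and 90.4, 122, 60.4 and 26.8 CPM with DMSO. In KG-1a both drug libraries were above DMSO for CDK1, and its fitted values were -0.34 (SE 0.21) and -0.18 (SE 0.21), the second of which was 0.05 without the OCI-AML3 DMSO library. FOXM1 had 63.3, 82.3, 59.0 and 73.1 CPM with darglitazone, 63.8, 71.9, 51.1 and 66.7 CPM with pioglitazone and 67.8, 89.1, 76.2 and 82.7 CPM with DMSO, with fitted values of -0.19 (SE 0.11, adjusted p = 1.0) and -0.32 (SE 0.11, adjusted p = 0.735). It was below DMSO in all 4 lines with either drug, though its darglitazone value was 0.01 with counts thinned to the depth of the shallowest library. CCNA2 had 85.2, 88.6, 72.2 and 24.1 CPM with darglitazone, 88.2, 72.8, 55.7 and 37.1 CPM with pioglitazone and 89.0, 169, 90 and 28.5 CPM with DMSO. The MOLM-14 libraries of CCNA2 were alike and OCI-AML3 differed most, with fitted values of -0.41 (SE 0.21) and -0.37 (SE 0.21). CCNB2 was at -0.36 and -0.48, the cyclin F gene CCNF at -0.27 and -0.49, the CDK1-binding protein gene CKS2 at -0.26 and -0.42, and the CDK1-activating phosphatases CDC25B at -0.17 and -0.36 and CDC25C at -0.27 and -0.29, with darglitazone and pioglitazone.

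The entry kinases PLK1, AURKA and NEK2 drive centrosome maturation and separation. PLK1 had 92.5, 85.2, 75.1 and 75.2 CPM with darglitazone, 111, 65.8, 69.6 and 46.4 CPM with pioglitazone and 116, 161, 107 and 59.9 CPM with DMSO. Its KG-1a library was above DMSO with darglitazone and below it with pioglitazone, and the fitted values were -0.38 (SE 0.19, adjusted p = 1.0) and -0.57 (SE 0.20, adjusted p = 0.735). AURKA had 56.4, 60.5, 50.2 and 37.9 CPM with darglitazone, 63.0, 45.6, 42.2 and 36.4 CPM with pioglitazone and 67.3, 124, 58.9 and 37.6 CPM with DMSO, where the difference lay mainly in OCI-AML3. Fitted values of AURKA were -0.41 (SE 0.18, adjusted p = 1.0) and -0.49 (SE 0.19, adjusted p = 0.806). NEK2 was at -0.36 (SE 0.27) with darglitazone and -0.41 (SE 0.28) with pioglitazone, and went in opposite directions by line: its within-line log2 ratios to DMSO were -1.18 and -1.59 in OCI-AML3 but 0.74 and 0.71 in KG-1a.

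The chromosomal passenger complex, made of the kinase AURKB with INCENP, survivin (BIRC5) and borealin (CDCA8), corrects faulty attachments of chromosomes to the spindle. All 4 genes had an unadjusted p under 0.05 with pioglitazone and 1 of 4, BIRC5, with darglitazone. BIRC5 had 96.0, 83.2, 80.2 and 71.8 CPM with darglitazone, 101, 44.7, 61.6 and 59.5 CPM with pioglitazone and 113, 140, 99.9 and 85.5 CPM with DMSO. It was below DMSO in all 4 lines with both drugs, and the groups overlapped. The fitted log2 fold change of BIRC5 was -0.41 (SE 0.17, adjusted p = 1.0) with darglitazone and -0.70 (SE 0.17, adjusted p = 0.559) with pioglitazone. AURKB had 55.0, 70.8, 50.1 and 33.7 CPM with darglitazone, 54.4, 55.3, 41.8 and 19.9 CPM with pioglitazone and 59.1, 95.8, 69.0 and 27.7 CPM with DMSO, with fitted values of -0.20 (SE 0.15) and -0.52 (SE 0.15, adjusted p = 0.627). With pioglitazone AURKB was below DMSO in all 4 lines, and with darglitazone in 3. CDCA8 was at -0.27 and -0.53 and INCENP at -0.27 and -0.51 with darglitazone and pioglitazone.

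In the spindle checkpoint, which delays anaphase, BUB1, MAD2L1 and TTK had an unadjusted p under 0.05 with darglitazone, and BUB1 and MAD2L1 with pioglitazone. BUB1, a kinase of unattached kinetochores, had 120, 71.7, 107 and 72.7 CPM with darglitazone, 130, 57.9, 93.0 and 80.9 CPM with pioglitazone and 131, 144, 140 and 76.9 CPM with DMSO. Its fitted values were -0.43 (SE 0.18, adjusted p = 1.0) and -0.43 (SE 0.18, adjusted p = 0.822), with the lower levels in OCI-AML3 and MV4-11 and little difference in KG-1a. MAD2L1 had 51.1, 66.5, 29 and 15.5 CPM with darglitazone, 48.9, 89.5, 27.0 and 16.2 CPM with pioglitazone and 48.2, 114, 42.1 and 20.3 CPM with DMSO, and was at -0.41 (SE 0.15, adjusted p = 1.0) and -0.33 (SE 0.15, adjusted p = 0.829). In MOLM-14 it was slightly above DMSO with both drugs, and in the other lines below. BUB3 had 417, 173, 266 and 140 CPM with darglitazone, 437, 146, 290 and 140 CPM with pioglitazone and 419, 220, 304 and 141 CPM with DMSO. Within MOLM-14 and KG-1a the 3 libraries of BUB3 hardly differed, and its fitted values were -0.14 (SE 0.11) and -0.14 (SE 0.12). BUB1B was at -0.30 and -0.27, and the checkpoint kinase TTK at -0.62 and -0.26.

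Kinetochore and centromere genes, whose products tie chromosomes to microtubules, had 2 of 5 members with an unadjusted p under 0.05 with darglitazone and 1 of 5 with pioglitazone. CENPF had 282, 271, 208 and 77.5 CPM with darglitazone, 341, 322, 205 and 101 CPM with pioglitazone and 306, 489, 237 and 90.4 CPM with DMSO. With darglitazone CENPF was below DMSO in all 4 lines (-0.35, SE 0.14, adjusted p = 1.0), and with pioglitazone in OCI-AML3 and MV4-11 but above DMSO in MOLM-14 and KG-1a (-0.13, SE 0.14, adjusted p = 0.949). The second value was 0.04 without the OCI-AML3 DMSO library. CENPA, the histone H3 variant that marks centromeres, had 15.1, 14.3, 26.1 and 17.8 CPM with darglitazone, 18.4, 13.2, 24.4 and 15.5 CPM with pioglitazone and 20.5, 27.9, 37.6 and 15.5 CPM with DMSO. It was below DMSO in every line but KG-1a, with fitted values of -0.47 (SE 0.19, adjusted p = 1.0) and -0.43 (SE 0.20, adjusted p = 0.829). The kinetochore motor CENPE was at -0.68 and -0.54, and the microtubule-binding pair NUF2 and NDC80 at -0.43 and -0.23 and at -0.41 and -0.37.

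Of the spindle motors and assembly factors, KIF11, TPX2 and HMMR had an unadjusted p under 0.05 with darglitazone, and KIF11, KIF4A, KIFC1 and TPX2 with pioglitazone. KIFC1, a motor that focuses spindle poles, had 89.8, 73.2, 64.5 and 57.8 CPM with darglitazone, 94.1, 35.1, 59.6 and 46.7 CPM with pioglitazone and 106, 80.5, 92.9 and 54.1 CPM with DMSO. Pioglitazone libraries of KIFC1 were below DMSO in all 4 lines, most in OCI-AML3, and the fitted values were -0.21 (SE 0.15) and -0.48 (SE 0.16, adjusted p = 0.724). HMMR had 36.8, 20, 33.8 and 9.63 CPM with darglitazone, 44.5, 24.6, 40.4 and 11.2 CPM with pioglitazone and 41.2, 52.2, 44.7 and 10.4 CPM with DMSO. Its darglitazone libraries were the lowest of the 3 in every line, with fitted values of -0.57 (SE 0.20, adjusted p = 1.0) and -0.25 (SE 0.20, adjusted p = 0.933), and the second value was 0.02 without the OCI-AML3 DMSO library. KIF11, which pushes the spindle poles apart, was at -0.37 and -0.37, and TPX2, the activator of AURKA, at -0.36 and -0.37. The microtubule depolymerase KIF2C was at -0.12 and -0.36, the chromosome motor KIF4A at -0.27 and -0.42, and the spindle protein DLGAP5 at -0.71 and -0.53 with wide intervals.

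Cytokinesis genes act in the central spindle and the contractile ring. KIF20A, the motor that brings mitotic kinases to the central spindle, had 73.4, 50.9, 65.7 and 31.0 CPM with darglitazone, 92.0, 29, 50.6 and 27.0 CPM with pioglitazone and 96.6, 111, 90.4 and 34.2 CPM with DMSO. It was below DMSO in all 4 lines with both drugs and fitted at -0.57 (SE 0.22, adjusted p = 1.0) and -0.71 (SE 0.23, adjusted p = 0.735). KIF23, a motor of the central spindle, had 42.8, 44.4, 36.0 and 27.2 CPM with darglitazone, 52.3, 37.7, 27.7 and 37.9 CPM with pioglitazone and 49.3, 87.1, 46.0 and 34.1 CPM with DMSO. All darglitazone libraries of KIF23 were below DMSO (-0.48, SE 0.19, adjusted p = 1.0), but its pioglitazone libraries were above DMSO in MOLM-14 and KG-1a (-0.38, SE 0.20, adjusted p = 0.875). ANLN had 67.1, 104, 79.2 and 22.2 CPM with darglitazone, 71.9, 85.1, 79.6 and 30.3 CPM with pioglitazone and 67.7, 123, 92.9 and 24.2 CPM with DMSO, and its fitted values were -0.15 (SE 0.13) and -0.07 (SE 0.13). The second value was 0.03 without the OCI-AML3 pioglitazone library, so no direction is given for ANLN with pioglitazone. PRC1 was at -0.20 and -0.24, and ECT2, the exchange factor that starts furrowing, at -0.35 and -0.27.

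The last role group acts at anaphase. CDC20, the activator of the anaphase-promoting complex, had 170, 107, 105 and 91.1 CPM with darglitazone, 195, 86.0, 86.3 and 84.7 CPM with pioglitazone and 206, 218, 161 and 117 CPM with DMSO. All 8 drug libraries were below the DMSO library of their own line, and the groups overlapped only through MOLM-14, whose drug libraries exceeded DMSO in other lines. CDC20 had the smallest p of the 43 genes with both drugs, at a fitted value of -0.59 (SE 0.16, 95% confidence interval -0.93 to -0.25, adjusted p = 1.0) with darglitazone and -0.68 (SE 0.16, -1.03 to -0.33, adjusted p = 0.542) with pioglitazone. ESPL1, the protease separase that cuts cohesin, had 68.1, 101, 63.3 and 31.2 CPM with darglitazone, 70.7, 50, 59.0 and 26.7 CPM with pioglitazone and 77.2, 123, 87.0 and 26.6 CPM with DMSO. Its KG-1a libraries were not below DMSO, and the fitted values were -0.20 (SE 0.17) and -0.44 (SE 0.17, adjusted p = 0.806). PTTG1, the securin that restrains separase, was at -0.36 and -0.29, and the DNA topoisomerase TOP2A, which untangles sister chromatids, at -0.44 and -0.39. UBE2C was at -0.32 and -0.57 with intervals from -1.33 to 0.69 and from -1.59 to 0.44, and KG-1a held 19 counts or fewer of it.

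**Figure D3:**
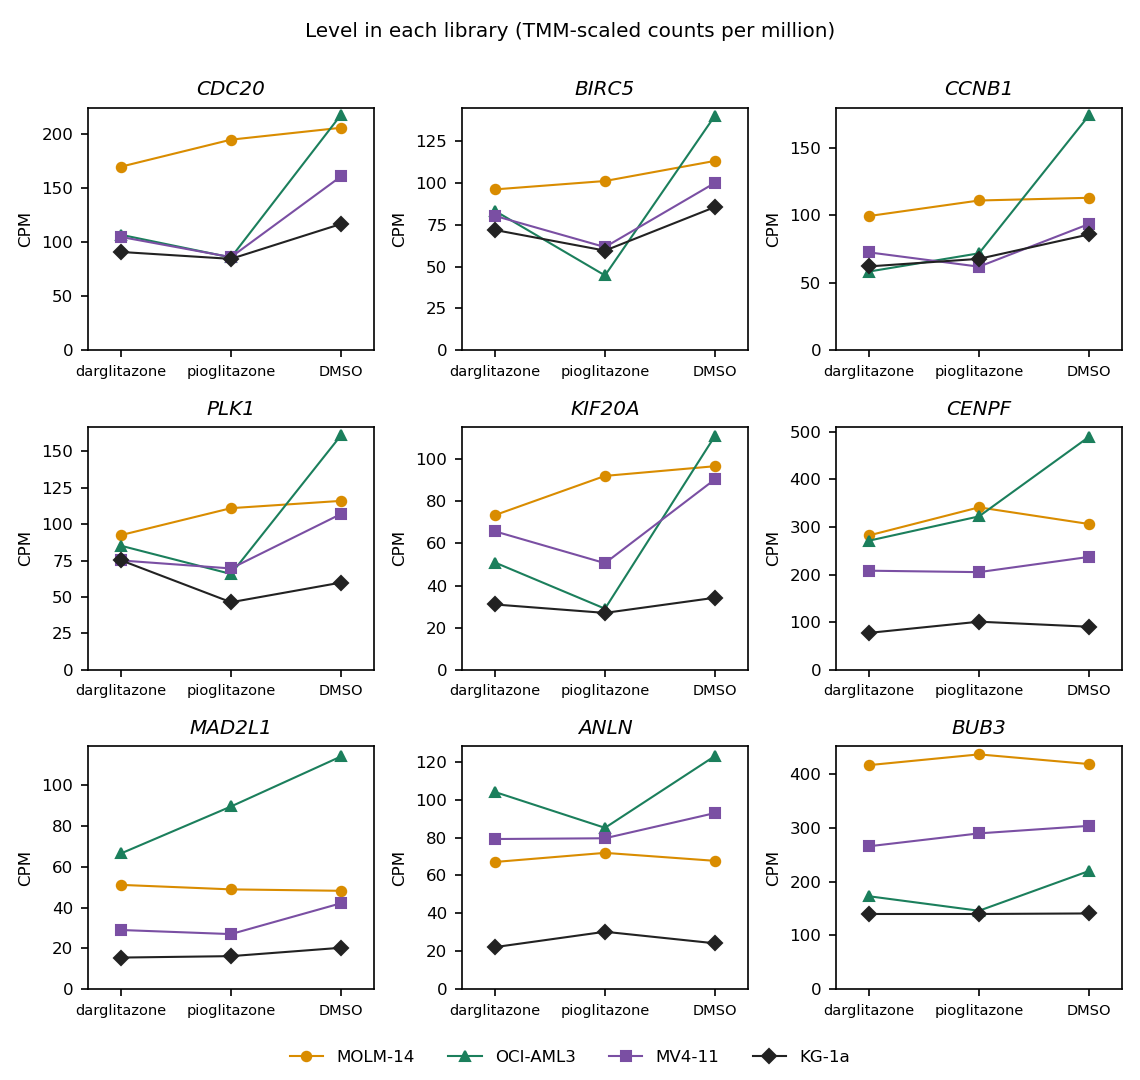
Level in CPM of 9 of the genes with darglitazone, pioglitazone and DMSO, 1 point per library and 1 line of points per cell line; the vertical axes start at 0. The OCI-AML3 DMSO library is the highest of its line in all 9 panels (218 CPM for CDC20, 111 CPM for KIF20A), and for BUB3 the 3 KG-1a libraries lie almost level (140 to 141 CPM).

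Within single lines each drug has 1 library against 1, and these ratios were not tested line by line. All 43 genes were below DMSO in OCI-AML3 and MV4-11. In OCI-AML3 the median log2 ratio was -0.92 with darglitazone and -1.21 with pioglitazone, where 50% and 60.6% of all tested genes were below DMSO and their medians were 0.00 and -0.20. The MV4-11 medians were -0.35 with darglitazone and -0.59 with pioglitazone, and the shares below DMSO compare with 47.0% and 51.2% of all tested genes. In MOLM-14, 41 genes were below DMSO with darglitazone (median -0.18) and 25 with pioglitazone (-0.02), against 49.4% and 48.8% of all tested genes. KG-1a had 24 of the 43 below DMSO with darglitazone (-0.03) and 23 with pioglitazone (-0.01), shares near the 48.9% and 47.8% of all tested genes. Over the 4 lines the median of the 43 genes averaged -0.37 ± 0.39 with darglitazone and -0.46 ± 0.57 with pioglitazone (SD over lines), so the spread between lines was as large as the mean.

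The share of protein-coding counts held by the 43 genes was 0.391%, 0.373% and 0.670% in OCI-AML3 and 0.397%, 0.347% and 0.497% in MV4-11 with darglitazone, pioglitazone and DMSO. It was 0.451%, 0.510% and 0.502% in MOLM-14. The OCI-AML3 DMSO share was the highest of the 12 libraries, and that library was also the deepest. The pioglitazone library of OCI-AML3 was the shallowest, with 3 to 367 counts for each of the 43 genes. Counting intervals (95%) of the ratio to DMSO lay below 0 in 43 of the 43 genes with darglitazone and 42 with pioglitazone in OCI-AML3. They cover counting error in 1 library against 1 and not the spread between cultures: in KG-1a, whose medians were near 0, they lay below 0 in 9 genes and above it in 6 with darglitazone, and below in 14 and above in 10 with pioglitazone. In MOLM-14 they lay below 0 in 27 genes and above in 0 with darglitazone, and below in 8 and above in 5 with pioglitazone. In MV4-11 they lay below 0 in 41 genes with darglitazone and 38 with pioglitazone, and above in 0 with either. Such intervals were not taken over all tested genes, so no share stands beside these counts. Both ratios in OCI-AML3 use its single DMSO library, and the part of that library in them was not tested. When both the KG-1a and the OCI-AML3 library with pioglitazone were omitted, a choice made after seeing the data, the pioglitazone median was -0.31 and all 43 fitted values stayed below 0.

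Whether the lines responded differently was tested with a term for line by drug, in which the darglitazone and pioglitazone libraries of a line were taken as 2 libraries of 1 drug group. The test thus concerns the mean response to both drugs, and the difference between the drugs within a line serves as its error. No gene passed an adjusted p of 0.05 by edgeR's quasi-likelihood test, 3.59% of all tested genes had an unadjusted p under 0.05, DESeq2 called 36 genes and limma-voom 0. Of the 43 genes, 0 were called by any of the 3 tools and 15 had an unadjusted p under 0.05. The smallest was that of DLGAP5 (unadjusted p = 0.00129, adjusted p = 0.748), whose level was 34.6, 25.0, 30 and 22.0 CPM with darglitazone, 46.1, 16.7, 26.1 and 28.3 CPM with pioglitazone and 42.0, 87.0, 41.6 and 21.4 CPM with DMSO. Its within-line log2 ratios were -1.80 and -2.38 in OCI-AML3 and 0.04 and 0.40 in KG-1a. NEK2 (unadjusted p = 0.00299) and CCNB1 (0.00676) followed, both with adjusted p = 1.0. A difference in response between lines was therefore not shown for any of these genes.

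**Figure D4:**
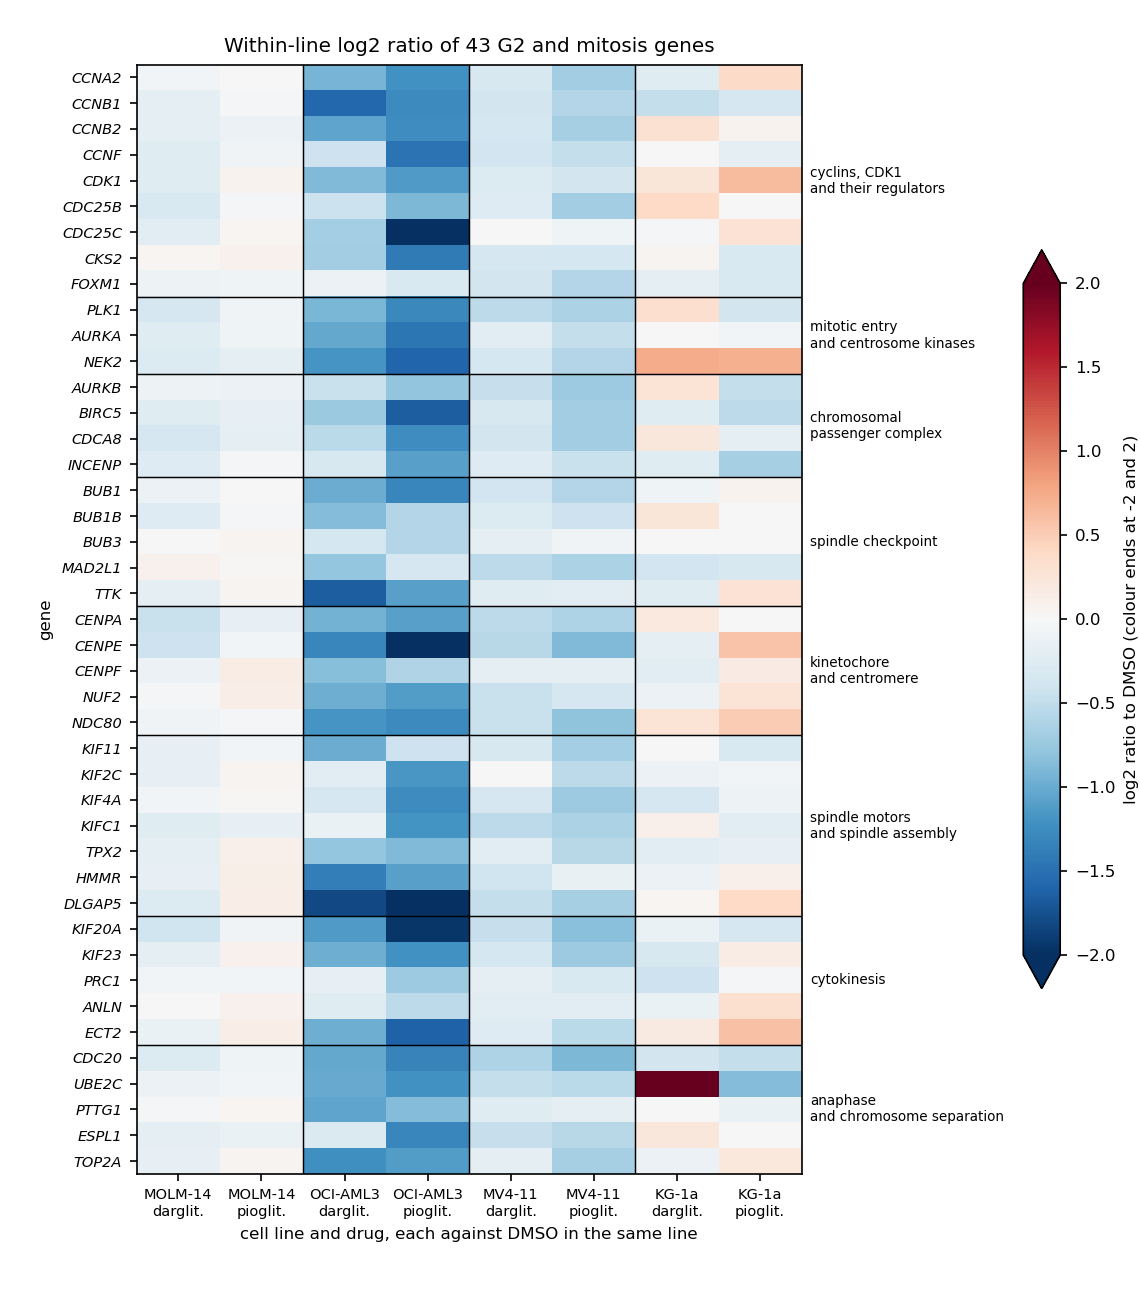
Log2 ratio to DMSO of the same line for each of the 43 genes (rows, by role) with darglitazone and pioglitazone in 4 lines (columns); blue is below DMSO and red above, and the colour scale ends at -2 and 2. OCI-AML3 columns are blue throughout (medians -0.92 and -1.21), MV4-11 columns paler (-0.35 and -0.59), and the MOLM-14 columns paler still (-0.18 and -0.02). KG-1a columns have medians near 0 (-0.03 and -0.01) but mix blue and red cells, from -0.86 for UBE2C to 0.71 for NEK2 with pioglitazone. The dark red cell is UBE2C in KG-1a with darglitazone, a ratio of 19 counts to 4.

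Darglitazone and pioglitazone share the thiazolidinedione ring and differ in the side chain, which ends in an ethylpyridine in pioglitazone and carries a methylphenyloxazole in darglitazone. This 1 pair of compounds was compared at the same dose and time. The fitted log2 fold change of darglitazone over pioglitazone had a median of 0.01 over the 43 genes, against 0.03 over all tested genes, and 18 of the 43 were below 0, against 45.0% of all tested genes. No gene was called by edgeR's quasi-likelihood test (541 of 15424 had an unadjusted p under 0.05), DESeq2 called 12 genes and limma-voom 0, and of the 43 genes 0 were called and 0 had an unadjusted p under 0.05. The smallest was that of AURKB, which was higher with darglitazone than with pioglitazone in all 4 lines (0.32, SE 0.15, 95% confidence interval -0.01 to 0.64, adjusted p = 0.98). For CDC20 the difference was 0.09 with an interval of -0.26 to 0.44, for CCNB1 -0.10 with -0.54 to 0.34, and for TTK, lower with darglitazone in all 4 lines, -0.36 with -0.87 to 0.15. These intervals reach as far as many of the fitted values against DMSO, so the drugs are not shown to act alike. By line, 41 of the 43 genes were lower with darglitazone than with pioglitazone in MOLM-14, against 49.6% of all tested genes, and 6 in MV4-11 against 43.4%, 9 in OCI-AML3 against 39.4% and 21 in KG-1a against 48.6%. The count of 18 ranged from 7 without the MOLM-14 pioglitazone library, through 10 without that of KG-1a and 11 without the OCI-AML3 darglitazone library, to 28 without the OCI-AML3 pioglitazone library.

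Other genes of the mitotic machinery and its regulators were read from lists grouped by function. Like the 43 genes, these lists were chosen with earlier results of these data known. Of all tested genes, 49.0% were below DMSO with darglitazone and 53.5% with pioglitazone. At an unadjusted p under 0.05 in edgeR's quasi-likelihood test, 1.65% and 3.87% were lower. These shares stand beside the counts of every list that follows. Of 46 further spindle and kinetochore genes, 43 were below DMSO with darglitazone (median -0.27) and 43 with pioglitazone (-0.23), 8 and 11 of them at an unadjusted p under 0.05. Among them MKI67, the proliferation marker Ki-67, had 236, 225, 166 and 80.6 CPM with darglitazone, 299, 228, 140 and 90.2 CPM with pioglitazone and 351, 249, 261 and 88.5 CPM with DMSO. It was below DMSO with both drugs in MOLM-14, OCI-AML3 and MV4-11 and differed little in KG-1a, with fitted values of -0.39 (SE 0.14, adjusted p = 1.0) and -0.31 (SE 0.14, adjusted p = 0.829). The smallest p in this list belonged to SGO2, a protector of centromeric cohesin, with darglitazone (-0.70, SE 0.18, adjusted p = 1.0) and to TROAP, a spindle-associated protein, with pioglitazone (-0.66, SE 0.17, adjusted p = 0.559), each below DMSO in all 4 lines. Of 18 condensin and cohesin genes 17 were below DMSO with darglitazone and 11 with pioglitazone (medians -0.16 and -0.07), led by the condensin subunits NCAPG2 with darglitazone (-0.22, SE 0.11) and NCAPH with pioglitazone (-0.62, SE 0.17, adjusted p = 0.627). Of 17 genes of the anaphase-promoting complex, its regulators included, 13 and 14 were below DMSO (-0.13 and -0.11), led by ANAPC15 (-0.25, SE 0.14) and ANAPC11 (-0.28, SE 0.13). The 22 DREAM and MYBL2-MuvB regulators had 14 and 13 below DMSO and medians of -0.03 and -0.05, close to those of all tested genes. MYBL2, the activator in that list, was at -0.20 (SE 0.14) with darglitazone and -0.48 (SE 0.14, adjusted p = 0.627) with pioglitazone, and had the smallest p of the list with pioglitazone. RBBP4, a histone-binding subunit, had it with darglitazone (-0.28, SE 0.12), and the repressor E2F4 was at -0.09 and -0.21. No gene of any of these lists was called.

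Of 33 genes of G1/S and DNA replication, 23 were below DMSO with darglitazone and 30 with pioglitazone (medians -0.10 and -0.18), 5 and 12 of them at an unadjusted p under 0.05. GINS4, a subunit of the replicative helicase, had the smallest p with both drugs (-0.38, SE 0.12, and -0.40, SE 0.13). All 35 tested histone genes of S phase were below DMSO with either drug (medians -0.36 and -0.57), 19 and 32 at an unadjusted p under 0.05, with the smallest p for H2BC17 with darglitazone (-0.59, SE 0.19, adjusted p = 1.0) and H2BC7 with pioglitazone (-0.67, SE 0.16, adjusted p = 0.542). CDK inhibitors and G2 brakes had 8 and 9 of 15 tested genes below DMSO, against 49.0% and 53.5% of all tested genes. The smallest p there belonged to CDKN2B with darglitazone (2.13, SE 1.01, adjusted p = 1.0), a gene at 3.49 CPM or less in every library and at 0 in all MOLM-14 libraries, and to CDKN2C with pioglitazone (-0.42, SE 0.15, adjusted p = 0.738), and CDKN1A, the p21 inhibitor, was at 0.48 (SE 0.52) with darglitazone and 0.00 (SE 0.54) with pioglitazone. No gene of these 3 lists was called either. Counts of different lists are set side by side, and the difference between lists was not tested.

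Transcripts annotated as coding carried most of the counts. The leading transcript was protein-coding in 42 of the 43 genes and held at least 75% of the gene's counts, as a mean over libraries, in 23. The exception was BUB1, whose leading transcript, BUB1-207, is annotated as a retained intron and held 45.9% of the counts (28.2% to 64.2% over libraries). In OCI-AML3, protein-coding transcripts of BUB1 were at 35.9, 20.7 and 101 CPM with darglitazone, pioglitazone and DMSO, while its retained-intron transcripts were at 35.8, 37.2 and 41.5 CPM. In MV4-11 the coding transcripts were at 58.9, 45.4 and 84.3 CPM and the retained-intron transcripts at 47.1, 46.2 and 54.1 CPM. In both lines the drug libraries of BUB1 were below DMSO mainly in coding transcripts, a comparison of 1 library with 1. MAD2L1 did not share this split. In OCI-AML3 its coding transcripts were at 37.2, 52.8 and 54.4 CPM with darglitazone, pioglitazone and DMSO, and its retained-intron transcripts at 12.3, 3.68 and 48.4 CPM. Retained-intron transcripts held a median of 27.0% of the counts of MAD2L1 and 14% of those of PRC1. The libraries were made from total RNA, so unspliced RNA is counted with the mature message, and the split between overlapping transcripts is an estimate.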

How the data were processed

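RNA was read in 12 libraries, 1 for each of 4 AML lines with darglitazone, pioglitazone or DMSO. Per the labels' protocols, total RNA was prepared with a stranded kit after removal of ribosomal RNA. Estimated counts per transcript were deposited by the authors, not scaled between libraries. The submitters' processing notes name fastp, FastQC, STAR, featureCounts, DESeq2 and GRCh38, and the tool that made the estimated counts and the annotation release are not given in the sources used here. Totals ran from 1.10 to 64.24 M counts, so precision differs greatly between libraries, and counting intervals (exact, 95%) cover counting error only.

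Transcript counts were summed per gene with the GENCODE 29 annotation (GRCh38), which held 202941 of 203027 transcripts, and rounded to whole numbers. Genes with enough counts in a line (filterByExpr, minimum count 10, minimum total 15) numbered 15424. They were scaled by TMM and tested with edgeR 4.0.16's robust quasi-likelihood test in R 4.3.3, in an additive model of line and treatment (6 residual degrees of freedom) or with line by drug (4), both drugs taken as 1 group. Calls were made at a Benjamini-Hochberg adjusted p under 0.05 over all tested genes. The line is thus a block, since treatments share it; same-line libraries deviated together in all 12 pairs (correlation 0.60 to 0.85). Within-line log2 ratios used a prior count of 2. CPM are TMM-scaled counts per 1000000, except for the cell type markers and the CPM of 3 counts, which use total counts without TMM. TPM used transcript lengths. The additive fit was also run on simulated counts, in which single genes were changed with pioglitazone and all genes had the same spread. That run did not cover the line by drug model, and its outcome is not given here. DESeq2 1.42.0, limma-voom 3.58.1, other filters and scalings, thinning, and leaving out libraries or lines were alternatives.

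The 43 genes, their role groups and the surrounding lists were chosen with earlier results of these data known. Named with every library's value are, in each role group, the genes with the smallest p for either drug and between lines, plus CDC20, BIRC5, CCNB1, CDK1, PLK1, FOXM1 and BUB3. In each surrounding list they are the genes with the smallest p for either drug, plus MKI67, MYBL2, E2F4 and CDKN1A; 1 further gene is not reported here. The labels name no separate cultures. P-values of the drug comparisons and of the lines come from the same additive fit. They rest on the spread between libraries that is left after line and treatment are taken out. Those of line by drug rest on the difference between the drug libraries of a line.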

Additional observations from a re-analysis of the deposited data

Results flagged for a closer look

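In 3 of 111 groups of 4 libraries or lines, 1 value lay farther from the rest than Dixon's critical gap, where chance gives about 1 in 20 such groups. The within-line log2 ratio of BIRC5 with darglitazone was -0.75 in OCI-AML3, against -0.32, -0.25 and -0.24 in the other lines. That of CENPF with darglitazone was -0.85 in OCI-AML3, against -0.22, -0.18 and -0.12. The level of CDC20 with pioglitazone was 195 CPM in MOLM-14, against 84.7, 86.0 and 86.3 CPM in KG-1a, OCI-AML3 and MV4-11.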

How the results depend on the processing

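DESeq2 called 56 genes with pioglitazone (2 of the 43), 6 with darglitazone, 12 for darglitazone against pioglitazone and 36 for line by drug. Without the filter on low counts the calls were 223 genes with pioglitazone (5 of the 43), 76 with darglitazone (3 of the 43), 88 for darglitazone against pioglitazone and 157 for line by drug (2 of the 43). With counts thinned to the shallowest library they were 16, 1 and 4 genes in the 3 drug comparisons, and 3875, 4301, 3862 and 5305 genes in MOLM-14, OCI-AML3, MV4-11, then KG-1a, against 6352, 6529, 6302 and 8335. Genes below 0 with darglitazone against pioglitazone, 18 of 43, were 31 by limma-voom, and 29 and 35 when the pioglitazone libraries of OCI-AML3 and KG-1a, or also the KG-1a darglitazone library, were left out, 2 choices made after seeing the data. The first of these gave 77 genes (1 of the 43) for line by drug, and with the second that model could not be fitted. Nor could it be fitted without any 1 of the 4 DMSO libraries. In 150 bases before the start, TTTGAA was in 50% of the promoters, against 4.04% of those of tested genes. Either CHR form was there in 66.7%, against 7.24%. The cause of these changes was not tested.

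Leaving out 1 library or line gave 0 to 14 called genes with pioglitazone, 0 to 3 with darglitazone, 0 to 4 between the drugs and 0 to 55 for line by drug, with 0 of the 43 called in each. Of the 43 genes, 35 to 43 stayed below DMSO with pioglitazone (median -0.57 to -0.18) and 40 to 43 with darglitazone (-0.50 to -0.16). Darglitazone against pioglitazone gave 7 to 28 below 0 (median -0.08 to 0.12). Any line difference was called for 8223 to 11647 genes (14 to 37 of the 43), and single lines differed in 4404 to 8112 (6 to 32) for MOLM-14, 5113 to 6358 (10 to 21) for OCI-AML3, 4566 to 7212 (7 to 17) for MV4-11 and 6694 to 8864 (19 to 34) for KG-1a. Only 20 of the 43 genes were followed one by one in this way. Among these 20, pioglitazone values crossed 0 for CDK1 (-0.46 to 0.10), CENPF (-0.25 to 0.04), HMMR (-0.39 to 0.02) and ANLN (-0.22 to 0.05), in each case without OCI-AML3 libraries. Without the line they were 0.10, 0.04, 0.01 and 0.05, and without its DMSO library 0.05, 0.04, 0.02 and 0.00. FOXM1 with darglitazone was at 0.01 after thinning.

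Without the line as replicate block, so with the pairing ignored, the medians of the 43 genes were -0.48 with pioglitazone, -0.41 with darglitazone and 0.06 for darglitazone against pioglitazone (15 below 0), and no drug call was made with or without it. Depth limits the OCI-AML3 pioglitazone library most, where 3 counts correspond to 2.74 CPM of its total counts, without TMM scaling.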
